A study of Mus musculus with 12 samples.

Results

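A set of 10 genes of the NF-kappaB system were followed in epididymal white adipose tissue (eWAT) of mice on a high-fat diet (HFD). They were the rows of the count table whose mouse symbol is Nfkb1, Nfkb2, Rela, Relb, Rel, Nfkbia, Nfkbie, Nfkbiz, Ikbkb or Tnfaip3. All 10 were found among the 49315 genes of the table, and all 10 passed the filter on low counts, as did 18702 genes in total. The table holds 12 RNA-seq libraries in 4 groups of 3. Flox mice carry the allele miR-181a2b2flox/flox and KO mice are miR-181a2b2-/-, a systemic deletion of the cluster that encodes one copy each of miR-181a and miR-181b. All mice received the diet with 60% fat for 12 weeks, and weekly intraperitoneal injections of vehicle or of methotrexate (MTX) at 1 mg/kg, an antifolate used against inflammatory disease. The study's methods state that male, age-matched, cage-matched littermates were used, and give no age for these mice. The labels call the tissue white adipose, and the methods name it eWAT.

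NF-kappaB is a family of transcription factors that bind DNA as dimers of Rel-family subunits. In resting cells, inhibitors of the IkB family hold the dimers in the cytoplasm. Signals from cytokine and Toll-like receptors activate the IkB kinase (IKK), which marks the inhibitors for degradation and frees the dimers to enter the nucleus. Several of the genes that NF-kappaB switches on encode its own subunits and inhibitors, so the system carries feedback at the level of transcription. In the adipose tissue of obese animals it is known for inflammatory signalling in macrophages, endothelium and adipocytes.

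The deleted microRNAs and the promoters of the genes are shown first, because the former define the genotype and the latter were searched for the motif that the family binds. Both mature RNAs of the cluster lie on the plus strand of chromosome 2 in GRCm38, miR-181a-5p at chr2:38852741-38852763 and miR-181b-5p at chr2:38853845-38853868. Their sequences, from RefSeq on GRCm38.p6, share the seed in capitals (bases 2 to 8).
miR-181a-5p: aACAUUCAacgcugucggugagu
miR-181b-5p: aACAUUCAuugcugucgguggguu

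RefSeq promoters of 300 bases (250 before to 50 after a start) on GRCm38.p6 were at hand for 6 of the 10 genes, Nfkb2, Rela, Rel, Nfkbia, Nfkbie and Tnfaip3, with 9 starts in all. They were searched on both strands for the 10-base kappaB consensus, the motif that Rel-family dimers bind, and matches may overlap each other. It was found in 7 of these 9 promoters (77.8%), against 1480 of all 32851 promoters in the table (4.51%). By gene, 5 of 6 had a match (83.3%), against 1388 of 27025 genes (5.14%). Rela was the one without. A match is a description of the letters and not of binding. Below, 150 bases from 130 before to 20 after the start are given 5′ to 3′ on the strand of the gene, with every match in capitals. Nfkb2 is at chr19:46304607-46304756 on the plus strand (the first of its 3 starts), Rel at chr11:23770950-23771099 on the minus strand, Nfkbia at chr12:55492628-55492777 on the minus strand, Nfkbie at chr17:45555570-45555719 on the plus strand, Tnfaip3 at chr10:19015391-19015540 on the minus strand (the first of its 2 starts) and Rela at chr19:5637411-5637560 on the plus strand.
Nfkb2: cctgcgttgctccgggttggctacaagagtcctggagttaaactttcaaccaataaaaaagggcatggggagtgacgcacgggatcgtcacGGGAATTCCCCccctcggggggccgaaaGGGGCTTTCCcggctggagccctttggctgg
Rel: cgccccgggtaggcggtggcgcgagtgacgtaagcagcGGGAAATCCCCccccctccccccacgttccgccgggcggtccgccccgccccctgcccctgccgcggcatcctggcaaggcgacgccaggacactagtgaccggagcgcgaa
Nfkbia: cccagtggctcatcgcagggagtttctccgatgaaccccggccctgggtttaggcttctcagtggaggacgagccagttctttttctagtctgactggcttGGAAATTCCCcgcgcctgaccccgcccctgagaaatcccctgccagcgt
Nfkbie: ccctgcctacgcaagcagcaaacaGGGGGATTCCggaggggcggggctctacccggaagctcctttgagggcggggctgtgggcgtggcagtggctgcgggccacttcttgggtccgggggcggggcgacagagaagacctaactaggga
Tnfaip3: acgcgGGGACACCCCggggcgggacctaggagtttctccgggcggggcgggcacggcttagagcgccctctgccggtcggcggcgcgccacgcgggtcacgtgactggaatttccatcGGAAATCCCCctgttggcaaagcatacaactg
Rela: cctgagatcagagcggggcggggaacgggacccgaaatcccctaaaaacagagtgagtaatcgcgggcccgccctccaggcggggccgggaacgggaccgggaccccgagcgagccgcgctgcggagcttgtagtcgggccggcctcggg

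Depth was 19495310 to 23976469 counts per library, so that 3 counts, the limit that a count of 0 allows, stand for 0.118 to 0.188 CPM (counts scaled to a common library size, here with TMM factors). The rows of the deleted microRNA genes hold 0 counts in all libraries for Mir181b-2 and 0 to 2 for Mir181a-2, so this assay does not check the genotype. The labels number the libraries without saying whether each came from its own mouse, and p-values measure the spread between these libraries. Adipocyte markers were present in all libraries, with Fabp4 at 5180 to 22107 CPM. The 3 flox vehicle libraries stood apart. The summed level of 44 epididymis genes was 8186 CPM in flox vehicle replicate 1, 22843 CPM in replicate 3 and 2794 CPM in replicate 4. It was 932 CPM in flox MTX replicate 1 and ranged from 4.59 to 38.9 CPM over the 8 remaining libraries. A list of 14 testis germ cell genes summed to 235 to 645 CPM in flox vehicle and to 2.57 to 17.0 CPM in the other libraries. The calls in the comparisons with flox vehicle are therefore also given without its replicates 1 and 3, which lessens this difference but does not remove it, since replicate 4 also held these transcripts.

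Compared per length (CPM per kilobase of annotated exon, median of the 12 libraries), Nfkbia had the highest level of the 10 at 63.7, followed by Rela at 28.1 and Nfkb2 at 12.5. Relb stood at 6.22, Nfkb1 at 5.97, Ikbkb at 4.37, Nfkbiz at 3.74, Nfkbie at 3.0, Tnfaip3 at 2.73 and Rel at 1.69. By this measure the main inhibitor and the main transactivating subunit had the highest levels. The length is the union of all annotated exons, 19078 bases for Ikbkb and 3072 for Rela, so the ranks depend on the annotation. Without the length, group means were 70.2 to 99.4 CPM for Ikbkb and 84.3 to 91.6 CPM for Rela. The groups differed most for Rel and least for Rela. The ratio of the highest to the lowest group mean was 3.06 for Rel and 2.70 for Nfkbie, 1.92 for Nfkb2, 1.89 for Nfkb1, 1.73 for Nfkbia, 1.72 for Tnfaip3, 1.55 for Nfkbiz, 1.42 for Ikbkb, 1.33 for Relb and 1.09 for Rela. Flox vehicle had the lowest mean for 9 of the 10 genes (all but Rela), and KO MTX the highest for 8 (all but Nfkbia and Tnfaip3).

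**Figure D1:**
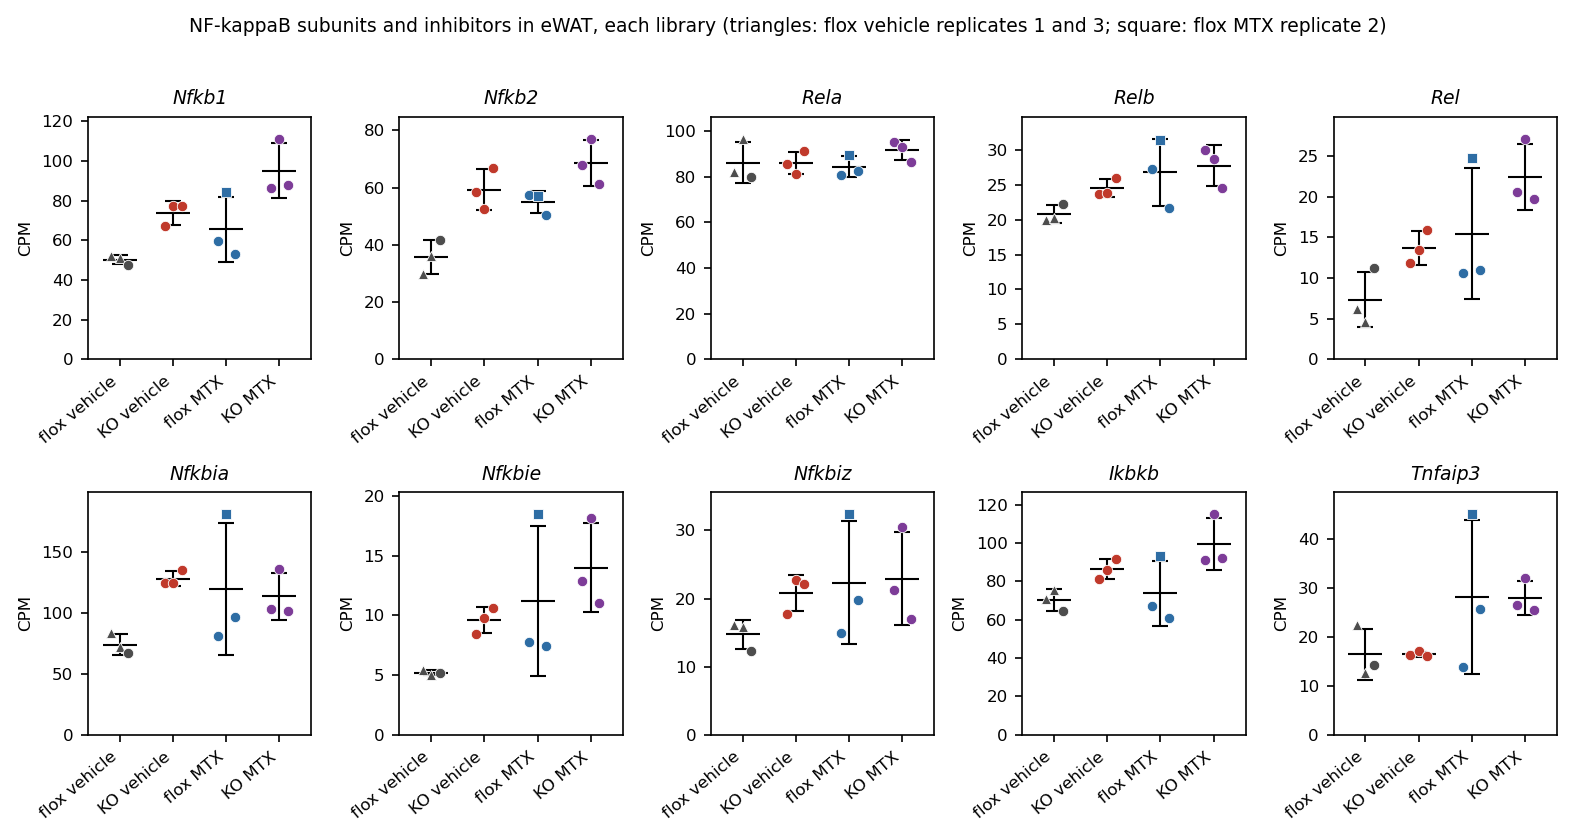
Level of each of the 10 genes in CPM (TMM-scaled, axes from 0) in the 12 libraries by group, 1 point per library, with the mean and SD of 3 as bar and whiskers. Rela lies between 79.8 and 96.7 CPM in every library, while Rel spans 4.64 to 27.1 CPM, and flox MTX replicate 2 (square) is the highest flox MTX library for 9 of the 10 genes.

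The first comparison asked whether loss of the cluster changed these genes in mice on HFD without the drug. Under vehicle, 4 of the 10 genes were higher in KO than in flox mice and none was lower, where a call needs an adjusted p below 0.1 and a change of at least 1.5-fold (edgeR quasi-likelihood test over all 18702 genes). They were the subunits Nfkb2 and Rel and the inhibitors Nfkbia and Nfkbie. With a fold limit of 1.5 on the log2 scale, as the study's methods write it, none of the 10 was called, here or in any other comparison. Of all genes tested, 13.9% were called higher, 17.8% lower and 31.7% in either direction. The median log2 fold change was 0.53 over the 10 genes and -0.06 over all genes. All 3 KO libraries lay above all 3 flox libraries for 8 of the 10 genes (all but Rela and Tnfaip3), a separation found upward in 22.8% of all genes. For a single gene the exact permutation test of 3 against 3 (two-sided) then gave p = 0.1, the smallest it can give.

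Nfkb2, which encodes the precursor of the subunit of the non-canonical pathway, is ENSMUSG00000025225 at chr19:46304320-46312385 on the plus strand. Flox vehicle replicates 1, 3 and 4 had 29.7, 36.2 and 41.7 CPM, against 58.5, 52.5 and 66.8 CPM in KO vehicle replicates 1 to 3. The groups did not overlap, and the log2 fold change was 0.72 ± 0.15 (SE, adjusted p = 0.00590). It was the one member called in all 12 fits that each left out 1 library. Its exons share 531 bases with the opposite-strand lncRNA AC114539.1 and 299 bases with the opposite-strand gene Psd, and without a stated strand setting their reads cannot be told apart.

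Rel encodes c-Rel, a subunit best known from lymphoid and myeloid cells (ENSMUSG00000020275, chr11:23736847-23770970, minus strand). Its level was 6.21, 4.64 and 11.2 CPM in the flox vehicle libraries (replicates 1, 3 and 4) and 11.8, 13.4 and 15.9 CPM in KO vehicle replicates 1 to 3. Flox replicate 4 nearly reached the lowest KO library. The log2 fold change was 0.90 ± 0.38 (SE, adjusted p = 0.0943), and the call held in 4 of the 12 fits that left out 1 library.

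Nfkb1 encodes the precursor of the subunit that forms the classical dimer with the Rela product (ENSMUSG00000028163, chr3:135584655-135691547, minus strand). Its levels were 51.9, 51.2 and 47.7 CPM in flox vehicle and 67.0, 77.1 and 77.1 CPM in KO vehicle, without overlap. The log2 fold change of 0.55 ± 0.17 (SE) passed the adjusted p (0.0336) but at 1.47-fold lay below the fold limit, so it was not called. Rela, the main transactivating subunit (ENSMUSG00000024927, chr19:5637483-5648130, plus strand), had a mean of 86.2 ± 9.13 CPM in flox and 86.1 ± 4.90 CPM in KO (SD, n = 3). The interval of its difference ran from -0.25 to 0.25 on the log2 scale. Relb, the usual partner of the Nfkb2 product (ENSMUSG00000002983, chr7:19606217-19629438, minus strand), ranged from 19.96 to 22.3 CPM in flox and from 23.6 to 26.0 CPM in KO. Its groups were apart, but the log2 fold change of 0.23 ± 0.15 (SE) did not pass (adjusted p = 0.260).

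Among the inhibitors, Nfkbia encodes IkB-alpha, the fast feedback inhibitor of the classical dimer (ENSMUSG00000021025, chr12:55489410-55492647, minus strand). The flox vehicle libraries, in the same order, had 83.8, 71.6 and 66.7 CPM, against 124.3, 124.4 and 135.2 CPM in KO vehicle replicates 1 to 3. The groups were far apart relative to their spread, with a log2 fold change of 0.79 ± 0.26 (SE, adjusted p = 0.0419), called in 10 of the 12 fits that left out 1 library. Nfkbie encodes IkB-epsilon, a second feedback inhibitor (ENSMUSG00000023947, chr17:45555703-45563169, plus strand). It stood at 5.42, 4.995 and 5.17 CPM in flox and at 8.46, 9.78 and 10.6 CPM in KO, from 112 to 231 counts per library. These groups did not overlap either, with a log2 fold change of 0.89 ± 0.33 (SE, adjusted p = 0.0686), called in 7 of those 12 fits.

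Nfkbiz encodes IkB-zeta, a nuclear member of the inhibitor family that acts as a cofactor at some target genes (ENSMUSG00000035356, chr16:55811375-55838899, minus strand). It ranged from 12.3 to 16.1 CPM in flox and from 17.8 to 22.7 CPM in KO, with a log2 fold change of 0.50 ± 0.29 (SE, adjusted p = 0.215). Ikbkb, the catalytic subunit of IKK that acts in the classical pathway (ENSMUSG00000031537, chr8:22659212-22706589, minus strand), ranged from 64.5 to 75.5 CPM in flox and from 81.1 to 91.6 CPM in KO, with a log2 fold change of 0.29 ± 0.17 (SE, adjusted p = 0.205). Both were apart between the groups without passing the test. Tnfaip3 encodes A20, a ubiquitin-editing enzyme that ends signalling upstream of IKK (ENSMUSG00000019850, chr10:19000910-19015657, minus strand). Its levels in flox vehicle were 22.4, 12.6 and 14.3 CPM, against 16.3, 17.0 and 16.1 CPM in KO vehicle. The 3 KO libraries lay within the flox range, and the interval of the difference, -0.77 to 0.77 on the log2 scale, was wide.

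The calls depended on which flox vehicle and KO vehicle libraries were kept. Without flox vehicle replicates 1 and 3, where the single library left is assumed to vary like the other groups, no member was called, and 7.07% of all genes were. The log2 fold changes were then 0.51 for Nfkb2, 0.30 for Rel, 0.95 for Nfkbia and 0.90 for Nfkbie. Leaving out single libraries gave 2 calls without flox vehicle replicate 1 (Nfkb2 and Nfkbia), 1 without flox vehicle replicate 3 (Nfkb2), 2 without KO vehicle replicate 2 (Nfkb2 and Nfkbia) and 1 without KO vehicle replicate 3 (Nfkb2). In these fits 27.2%, 25.4%, 28.2% and 23.7% of all genes were called, in that order. With scale factors computed without the epididymis and testis genes, the count of members was again 4, beside 5926 of all genes.

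**Figure D2:**
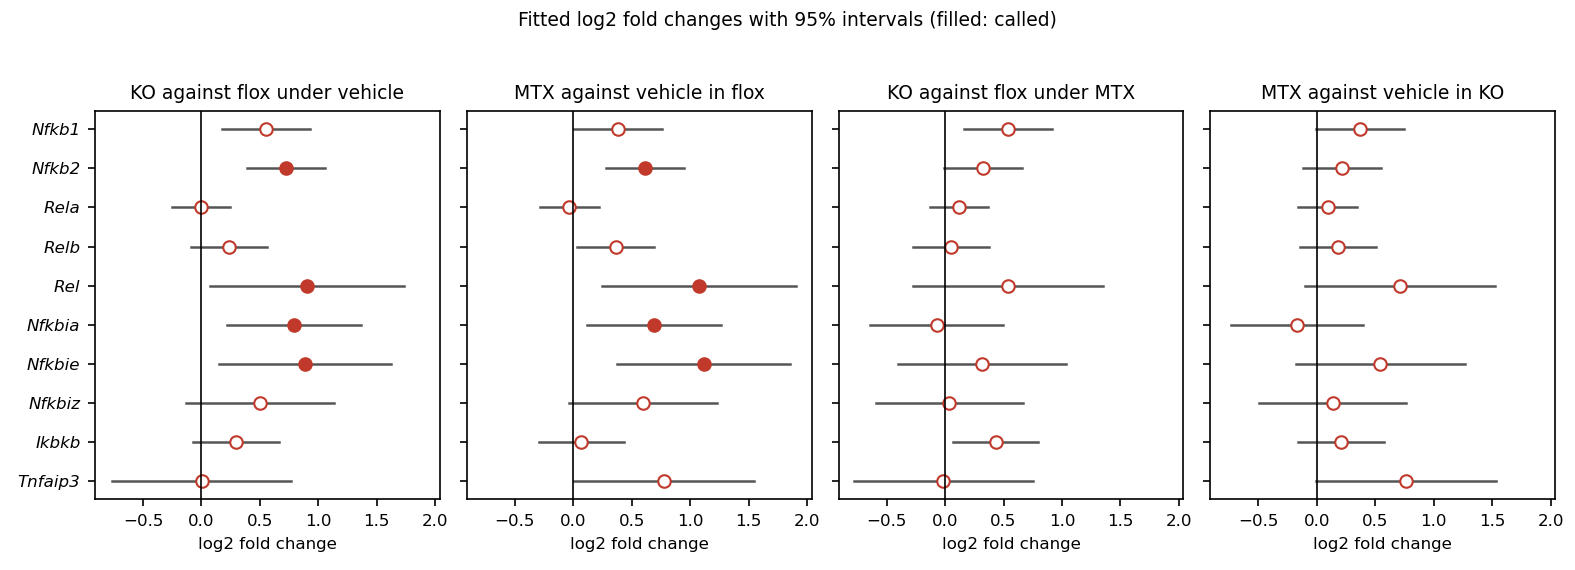
Fitted log2 fold changes of the 10 genes with 95% intervals in the 4 comparisons, filled where called (adjusted p below 0.1 and at least 1.5-fold). The 4 filled points in KO against flox under vehicle are Nfkb2, Rel, Nfkbia and Nfkbie, and no point is filled in either comparison with KO MTX.

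The next comparison asked what the drug did in mice with the cluster intact. In flox mice, 4 of the 10 genes were higher under MTX than under vehicle and none was lower, against 8.09% of all genes higher, 16.1% lower and 24.2% in either direction. They were Nfkb2 and Rel among the subunits and Nfkbia and Nfkbie among the inhibitors. The median log2 fold change was 0.61 over the 10 genes and 0.05 over all genes. Only 3 of the 10 (Nfkb1, Nfkb2 and Nfkbie) had all 3 MTX libraries above all 3 vehicle libraries, which held for 10.9% of all genes. This comparison uses the same 3 flox vehicle libraries as the one of the genotypes, so the 2 are not independent.

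The flox MTX libraries were uneven. Nfkb2 was the exception, at 57.3, 57.0 and 50.5 CPM in flox MTX replicates 1, 2 and 4, all above the vehicle libraries, with a log2 fold change of 0.61 ± 0.15 (SE, adjusted p = 0.0193). Nfkbie stood at 7.79, 18.5 and 7.44 CPM, a log2 fold change of 1.12 ± 0.34 (SE, adjusted p = 0.0402). All 3 lay above the vehicle libraries (4.995 to 5.42 CPM), replicate 2 by the most. Rel stood at 10.6, 24.7 and 11.0 CPM, where the lower pair lay below flox vehicle replicate 4, with a log2 fold change of 1.08 ± 0.38 (SE, adjusted p = 0.0687). Nfkbia stood at 80.7, 181.1 and 96.3 CPM, a log2 fold change of 0.69 ± 0.26 (SE, adjusted p = 0.0857). Its replicate 1 lay below the highest vehicle library, and replicate 2 was the highest of all 12 libraries.

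Among the genes not called, Tnfaip3 showed the same unevenness at 13.9, 45.1 and 25.7 CPM, with a log2 fold change of 0.78 ± 0.35 (SE, adjusted p = 0.141). Nfkbiz stood at 14.9, 32.4 and 19.8 CPM (log2 fold change 0.60, adjusted p = 0.167), and Nfkb1 at 59.4, 84.1 and 53.3 CPM (0.38, adjusted p = 0.140). Nfkb1 was apart from vehicle and Nfkbiz was not. Relb had a mean of 26.7 ± 4.85 CPM (0.36, adjusted p = 0.112), Ikbkb 73.7 ± 17.2 CPM (0.07, adjusted p = 0.798) and Rela 84.3 ± 4.58 CPM (-0.03, adjusted p = 0.861), each as SD with n = 3. The interval for Rela was -0.28 to 0.22.

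Without flox MTX replicate 2, 1 of the 4 calls was left (Nfkb2), beside 23.99% of all genes. The log2 fold change then dropped to 0.56 for Nfkbie, 0.57 for Rel and 0.27 for Nfkbia. Without flox vehicle replicate 1 there were 2 calls (Nfkbie and Tnfaip3), beside 19.6% of all genes. Without flox vehicle replicate 3 there was 1 (Nfkb2), beside 11.7% of all genes. Without both of these, no member was called, as against 2.90% of all genes, with log2 fold changes of 0.40 for Nfkb2, 0.47 for Rel, 0.85 for Nfkbia and 1.13 for Nfkbie. A fit of the 6 libraries of this comparison alone also called no member, beside 12.2% of all genes.

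Under MTX, no member was called between KO and flox mice with edgeR or with DESeq2. Of all genes edgeR called 0%, with a smallest adjusted p of 0.104 against the limit of 0.1, while DESeq2 called 2740. edgeR itself called 1491 genes when each library had to hold 10 or more counts, 875 without a filter, 1028 when flox vehicle replicate 3 was left out and 76 when replicate 1 of flox MTX was. At an unadjusted p below 0.05 edgeR gave 2 of the 10, Nfkb1 and Ikbkb, beside 24.5% of all genes. DESeq2 gave these 2 an adjusted p of 0.0413 and 0.0892, below the fold limit. Nfkb1 stood at 86.6, 111.2 and 87.6 CPM in KO MTX replicates 2, 3 and 4, all above flox MTX, with a log2 fold change of 0.54 ± 0.17 (SE, adjusted p = 0.119). Ikbkb stood at 90.9, 115.0 and 92.3 CPM, where flox MTX replicate 2 (93.1 CPM) lay among them, with 0.43 ± 0.17 (SE, adjusted p = 0.152). Nfkb1 and Nfkb2 were the 2 of 10 with all KO libraries above all flox libraries, which held for 14.7% of all genes. Nfkb2 stood at 67.8, 77.1 and 61.2 CPM (0.32, adjusted p = 0.212).

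The other genes overlapped between the genotypes under MTX. Rel stood at 20.6, 27.1 and 19.7 CPM in KO MTX, Nfkbie at 12.9, 18.2 and 11.0 CPM, Nfkbia at 103.4, 136.1 and 101.6 CPM and Tnfaip3 at 26.4, 31.9 and 25.5 CPM. In each of these genes KO MTX replicate 3 was the highest of its group. Without flox MTX replicate 2, 4 members were called higher in KO MTX than in flox MTX, with log2 fold changes of 0.76 for Nfkb1, 0.64 for Ikbkb, 1.06 for Rel and 0.88 for Nfkbie, beside 20.8% of all genes. The count under MTX thus depended on that library.

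In KO mice, no member was called between MTX and vehicle with edgeR or with DESeq2, none of the 10 had an unadjusted p below 0.05, and 0% of all genes were called (7.97% had an unadjusted p below 0.05, and DESeq2 called 276 genes). Without KO vehicle replicate 3 edgeR called 215 genes, and again no member. The largest estimates were 0.76 ± 0.35 (SE) for Tnfaip3 and 0.71 ± 0.37 (SE) for Rel on the log2 scale, with adjusted p of 0.631 and 0.674. Tnfaip3, Rel, Nfkbie and Nfkb1 had all 3 MTX libraries above all 3 vehicle libraries, which held for 11.1% of all genes. Nfkbia was the one gene with a lower mean under MTX, 113.7 ± 19.4 against 128.0 ± 6.29 CPM (SD, n = 3), and its groups overlapped. Tnfaip3 had means of 16.5 ± 0.501 CPM under vehicle and 28.0 ± 3.47 CPM under MTX in KO mice, beside 16.4 ± 5.25 and 28.2 ± 15.8 CPM in flox mice (SD, n = 3).

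Whether the drug acted differently in the 2 genotypes was tested by the interaction of genotype and MTX. No member was called with edgeR or with DESeq2, against 0.989% of all genes with edgeR and 1224 genes with DESeq2. At an unadjusted p below 0.05 in edgeR, Nfkbia was the one gene of the 10. Its estimate was -0.86 ± 0.37 (SE) on the log2 scale with a 95% interval of -1.67 to -0.06 (adjusted p = 0.301). The 4 group means of Nfkbia were 74.0 (flox vehicle), 128.0 (KO vehicle), 119.4 (flox MTX) and 113.7 CPM (KO MTX). Leaving out 1 library at a time gave -1.08 to -0.44 for its interaction, with -0.44 without flox MTX replicate 2. The interaction of Nfkbie went from -0.57 to -0.02 without that library. For Nfkb2 the interaction was -0.40 ± 0.21 (SE, adjusted p = 0.402). Over the 10 genes the estimates ran from -0.86 to 0.14, negative for 8. Over all genes 46.4% of the estimates were positive, with a median of -0.05. The 10 genes were measured in the same libraries, so their signs are not independent. Without flox vehicle replicates 1 and 3 no member was called either, and the estimate was -1.02 for Nfkbia and -0.19 for Nfkb2, while that of Rel went from -0.36 to 0.24.

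In the order of the group means, neighbours mostly overlapped. For Nfkb1 the order was flox vehicle, flox MTX, KO vehicle and KO MTX, where flox vehicle lay apart from flox MTX, flox MTX and KO vehicle overlapped, and KO MTX lay apart from KO vehicle. Nfkb2 had the same order, with only flox vehicle apart from its neighbour. For Relb, Rel, Nfkbie and Nfkbiz the order was flox vehicle, KO vehicle, flox MTX and KO MTX, again with only flox vehicle apart. For Nfkbia, flox vehicle lay apart below KO MTX, and KO MTX, flox MTX and KO vehicle overlapped. Tnfaip3 had its gap between KO vehicle and KO MTX. All neighbours overlapped for Rela and Ikbkb.

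The rest of the pathway was described with a list of 57 genes, all of which passed the filter. In KO against flox under vehicle 15 were called higher, 1 lower and 41 not, with a median log2 fold change of 0.18. Of all genes, 13.9% were called higher, 17.8% lower and 31.7% in either direction, with a median of -0.06. By role, the receptors held the most calls, 6 of 10. Among those with the smallest p were Nfkbid (log2 fold change 2.29 ± 0.40), an atypical nuclear IkB protein, Tnfrsf11a (3.02 ± 0.55), the receptor for RANKL and Tlr2 (1.68 ± 0.36), a receptor for bacterial lipoproteins, each with its SE. Tab3, an adaptor of the kinase TAK1 upstream of IKK, was the gene called lower (-0.82 ± 0.21). Adaptors counted 4 of 16 called higher, kinases 1 of 9, the ubiquitin machinery 2 of 12, other inhibitors 2 of 5 and nuclear import factors 0 of 5.

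In flox mice under MTX, 9 of the 57 were called higher, none lower and 48 not, with a median of 0.20. Beside this, 8.09% of all genes were called higher, 16.1% lower and 24.2% in either direction, with a median of 0.05. The pathway count was 5 when flox MTX replicate 2 was dropped, 5 when replicate 1 of flox vehicle was and 2 when its replicate 3 was. It was 2 with the log2 limit and 0 with the 6 libraries alone. In these settings 23.99%, 19.6%, 11.7%, 14.9% and 12.2% of all genes were called, in that order. Among the 9 pathway genes, those with the smallest p included Cd40 (1.67 ± 0.44), a receptor of antigen-presenting cells. Tlr2 (1.23 ± 0.35) and Tlr4 (0.96 ± 0.28), the receptor for lipopolysaccharide, were others, each with its SE. With edgeR and the default filter no pathway gene was called between the genotypes under MTX, where 17 of 57 had an unadjusted p below 0.05 and DESeq2 called 9. There edgeR called 7 if a gene needed 10 counts per library, 2 without a filter and 3 once flox vehicle replicate 3 was left out. Of all genes in each of these fits, 10.55%, 2.525% and 5.40% were called, in that order. For MTX in KO mice edgeR called no pathway gene, 3 had an unadjusted p below 0.05 and DESeq2 called 0. Kpna4, an importin that carries NF-kappaB into the nucleus, and Card10, a scaffold protein upstream of IKK, are targets of miR-181b named by the study. In KO against flox under vehicle Kpna4 stood at 109.8 ± 9.84 against 118.0 ± 20.6 CPM (log2 fold change -0.10, adjusted p = 0.740) and Card10 at 60.2 ± 9.76 against 56.7 ± 15.5 CPM (0.09, adjusted p = 0.774), as mean and SD with n = 3. The 95% intervals of these differences were -0.55 to 0.35 and -0.35 to 0.52. Under MTX in flox mice Card10 stood at 39.9 ± 2.48 CPM. The log2 fold change of -0.51 ± 0.20 (SE, adjusted p = 0.0965) lay below the fold limit. In KO mice Card10 had a mean of 42.8 CPM under MTX against 60.2 CPM under vehicle. The log2 fold change there was -0.49 ± 0.20 (SE, adjusted p = 0.556). For Card10 the interaction of genotype and MTX was 0.01 ± 0.28 (SE, adjusted p = 0.991).

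Genes that NF-kappaB is known to switch on were described with a list of 31, of which 27 passed the filter. In KO against flox under vehicle 17 of the 27 were called higher and none lower, with a median log2 fold change of 1.28. Of all genes, 13.9% were called higher, 17.8% lower and 31.7% in either direction, with a median of -0.06. The called targets with the smallest p were Icam1 (1.59 ± 0.31), an adhesion molecule for leukocytes, Ccl3 (3.70 ± 0.74), a chemokine, Bcl2a1b (3.41 ± 0.71), an anti-apoptotic gene with near-identical copies whose reads may be split between them, and Bcl2l1 (0.85 ± 0.18), another anti-apoptotic gene, each with its SE. Tnf rose from 0.475 ± 0.109 to 2.49 ± 1.40 CPM (SD, n = 3), on 9 to 86 counts per library (log2 fold change 2.38 ± 0.56, SE). Vcam1, the second adhesion molecule, rose from 20.5 ± 10.8 to 46.7 ± 1.68 CPM (1.19 ± 0.41, SE). The list held 8 of 11 cytokines and chemokines, 2 of 2 adhesion molecules, 3 of 5 survival and stress genes and 4 of 9 others among those called.

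In flox mice under MTX, 9 of the 27 target genes were called higher and none lower, with a median of 0.64. The shares of all genes were 8.09% higher, 16.1% lower and 24.2% in either direction, with a median of 0.05. Dropping flox MTX replicate 2 gave a target count of 2, dropping replicate 1 of flox vehicle 5 and dropping its replicate 3 a count of 0. The log2 limit gave 5, and the 6 libraries alone 0. The shares of all genes called were then 23.99%, 19.6%, 11.7%, 14.9% and 12.2%, in that order. The 9 called targets included Ccl5 (1.65 ± 0.44), a chemokine, and Bcl2a1b (2.47 ± 0.70). They also included Saa3 (3.05 ± 0.87), an acute-phase gene, and Cd83 (1.73 ± 0.49), a marker of activated antigen-presenting cells, each with its SE. Tnf (1.87), Icam1 (1.01) and Vcam1 (1.31) were also called higher. The MTX and vehicle libraries overlapped for Ccl5, Bcl2a1b, Saa3, Cd83 and Vcam1, and were apart for Tnf and Icam1. For Vcam1 the study reports the opposite direction by qPCR, a lower mRNA level under MTX in eWAT of flox mice. With edgeR and the default filter none was called between the genotypes under MTX, where 9 of 27 had an unadjusted p below 0.05 and DESeq2 called 7 (edgeR called 2 without a filter, 1 with at least 10 counts and 1 without flox vehicle replicate 3), or for MTX in KO mice, where 2 did and DESeq2 called 0. Without flox MTX replicate 2, 22 of the 57 pathway genes and 13 of the targets were called between the genotypes under MTX, beside 20.8% of all genes. Sele, an adhesion molecule of activated endothelium, had 0 to 8 counts per library and did not pass the filter, so a change in it was not detectable at this depth. Leaving out flox vehicle replicates 1 and 3 leaves a single library in that group. In both comparisons with flox vehicle, calls then fell in the pathway and target lists and over all genes. The drop was thus not particular to these lists.

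**Figure D3:**
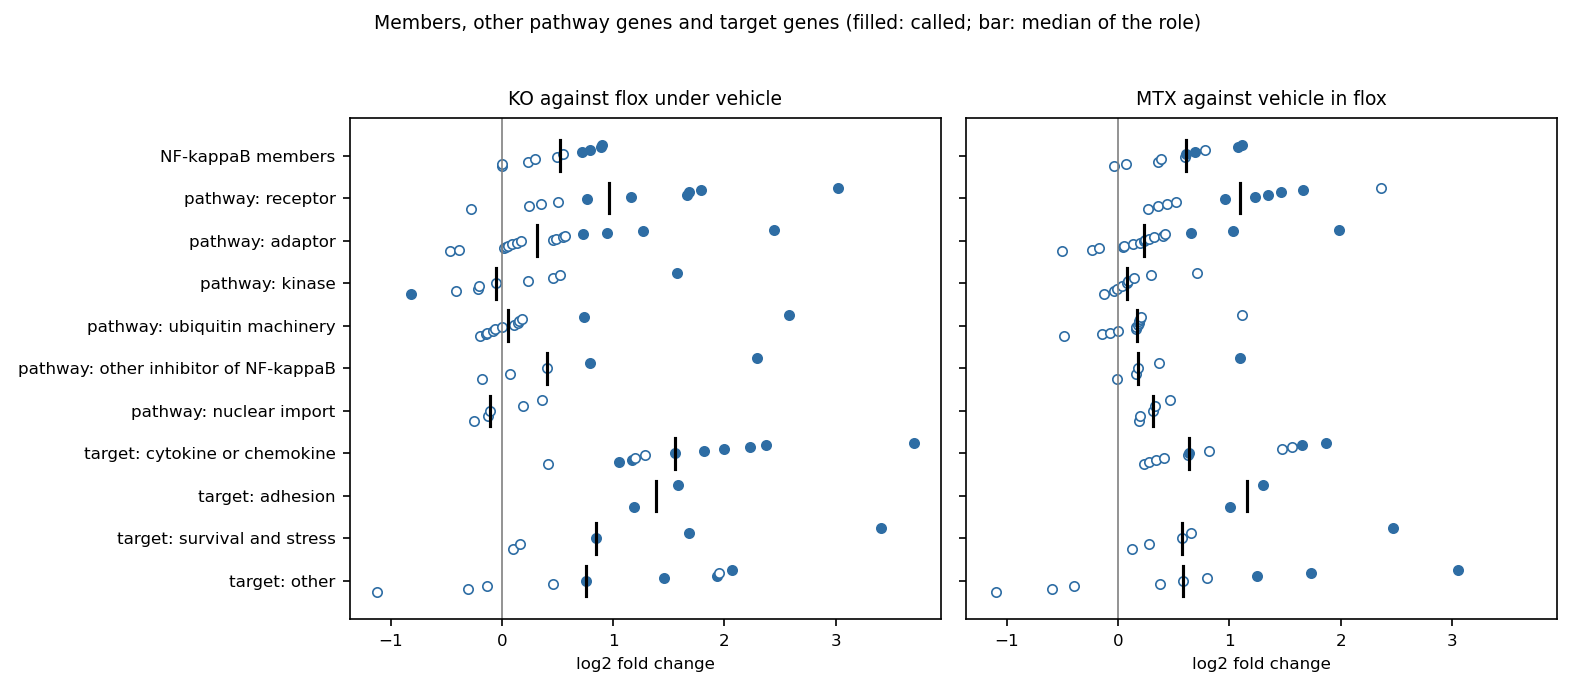
Log2 fold changes of the 10 genes, the 57 other pathway genes by role and the 27 tested target genes by kind in the 2 comparisons with flox vehicle, 1 point per gene, filled where called, with a bar at the median. In KO against flox under vehicle the medians are 0.96 for receptors and 1.55 for cytokines and chemokines, against 0.53 for the NF-kappaB genes and -0.10 for nuclear import.

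Markers of cell types moved with the same comparisons. All 16 macrophage markers were called higher in KO than in flox under vehicle, and 14 of 16 in flox MTX than in flox vehicle, and none of them was at 0 in any library. Their summed level was 819 to 1530 CPM in flox vehicle, 6642 to 12692 in KO vehicle, 1246 to 7454 in flox MTX and 9040 to 14966 in KO MTX. The highest mean of a single marker was that of Lgals3 in KO vehicle (1931 CPM, beside 1808 CPM for Lyz2) and that of Lyz2 in the other groups. Within flox MTX the sum was 4141, 7454 and 1246 CPM in replicates 1, 2 and 4, highest in the library that was highest for 9 of the 10 NF-kappaB genes. In that library, replicate 2, the sums of B cell markers (336 CPM, against 23.4 and 135 in replicates 1 and 4) and T cell markers (85.1, against 25.8 and 27.9) were also the highest of the group, as were those of dendritic cells, neutrophils, fibroblasts and mesothelium, while the adipocyte sum (24282, against 41211 and 43059) and the endothelial sum (323, against 692 and 466) were the lowest. For macrophages under MTX in flox mice the study reports the opposite direction to these markers, a lower content by Mac2 staining of eWAT sections. Without flox MTX replicate 2, 8 of 16 macrophage markers were called higher for MTX in flox mice. Without flox vehicle replicates 1 and 3, 0 of 16 were called in either comparison with flox vehicle. The part of these cells in the changes of the NF-kappaB genes was not tested, and in bulk tissue a shift in the number of cells of a type and a shift in RNA per cell cannot be told apart.

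Other lists moved as well. In KO against flox under vehicle, 8 of 10 endothelial markers were called higher (summed level 346 to 516 CPM in flox, 764 to 1133 in KO), as were 7 of 8 fibroblast markers (1635 to 3427 against 6784 to 11094 CPM), 4 of 8 dendritic cell markers, 2 of 8 T cell markers and 2 of 3 tested neutrophil markers. No adipocyte marker of 9 and no B cell marker of 7 was called, and 2 of 8 mesothelial markers were called lower, as were 18 of 23 tested epididymis and 14 of 14 testis genes. For MTX in flox mice the counts called higher were 0 of 10 for endothelium, 5 of 8 for fibroblasts, 4 of 8 for dendritic cells, 4 of 7 for B cells, 6 of 8 for T cells, 3 of 3 for neutrophils, 5 of 8 for mesothelium and 0 of 9 for adipocytes. Called lower in that comparison were 2 of 8 mesothelial markers, 18 of 23 tested epididymis and 14 of 14 testis genes. Without flox vehicle replicates 1 and 3, 1 endothelial marker and no marker of the other cell types was called higher between the genotypes under vehicle, while 2 mesothelial markers, 10 of 25 tested epididymis and 13 of 14 testis genes were called lower. For MTX in flox mice none was then called higher, and 1 of 25 epididymis and 12 of 14 testis genes were called lower. Without flox MTX replicate 2, the counts called higher for MTX in flox mice were 2 of 8 for fibroblasts, 1 of 8 for dendritic cells, 1 of 7 for B cells, 1 of 8 for T cells, 2 of 3 for neutrophils and 4 of 8 for mesothelium. Their part in the changes was not tested either.

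**Figure D4:**
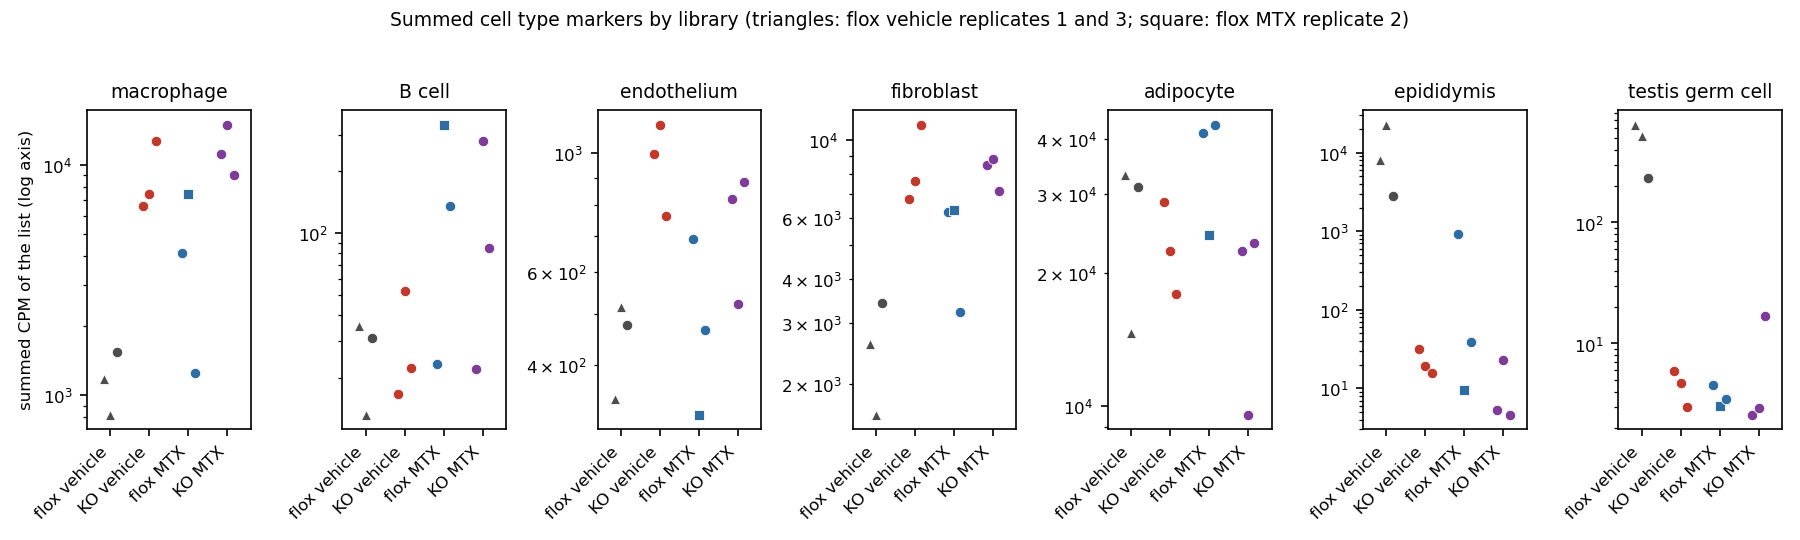
Summed CPM (log axis) of the markers of 7 cell types or tissues, 1 point per library by group. The macrophage sum is 819 to 1530 CPM in flox vehicle and 6642 to 12692 CPM in KO vehicle, and the epididymis sum is highest in the 3 flox vehicle libraries.

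Each gene was last set beside the 11830 other genes with a mean of at least 5 CPM, by the root mean square difference of centred log2 CPM over the 12 libraries, where 0 is an identical pattern. Rel was closest to Dock10 (0.15) and Ciita (0.19), while its own SD over the libraries was 0.76. Nfkb2 was closest to Atp6v0b (0.06) and Nras (0.07), with an SD of 0.40, and Nfkb1 to Tcp11l2 (0.09) and Wdr81 (0.10), with an SD of 0.39. Nfkbia lay nearest to Vamp5 (0.15) and Ankrd12 (0.16), Nfkbie to Sesn1 (0.16) and Swap70 (0.17), Nfkbiz to Fam189b (0.14) and Syt11 (0.15), Ikbkb to Pias1 (0.06) and Zfp319 (0.07), and Tnfaip3 to Rdm1 and Sept6 (both 0.24). Relb (Rps9 and Siva1, both 0.10) and Rela (Igbp1 and Ubap2l, both 0.05) varied little themselves, with SDs of 0.22 and 0.10. Within the 10 genes the closest pairs were Nfkb1 with Ikbkb (0.16) and Nfkbia with Nfkbiz (0.18). These libraries share groups and depth, and no test was made.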

How the data were processed

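RNA from eWAT was sequenced in 12 libraries. The deposited values are raw read counts per Ensembl gene, which the authors made in a bcbio pipeline: per the submitters' processing notes, Trimmomatic 0.36, STAR 2.5.2b on GRCm38 and featureCounts of Subread 1.5.2. The strand setting and the handling of reads with several matches are not given in the sources used here. The labels give polyA RNA, while the methods describe ribodepletion.

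The counts were analysed in R 4.3.3 with edgeR 4.0.16 (TMM, filterByExpr, 1 coefficient per group over 12 libraries, quasi-likelihood F-test, Benjamini-Hochberg adjustment over 18702 genes) with calls made for changes of at least 1.5-fold whose adjusted p was below 0.1. The study's methods write the fold limit as a log2 fold change of 1.5, which was an alternative, like DESeq2 1.42.0, other scalings, filters, a replicate block and each library left out. The common dispersion was 0.100. Coordinates are from GRCm38 (GENCODE M21). Genes without a symbol held 0.0688% of counts. The script was tested on simulated data.

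Intervals of single counts cover counting error only. No 2 libraries of a group agreed within sampling noise. The genes and lists were chosen with earlier results of these data known. Named list genes were up to 4 per direction with the smallest p among those called, plus Kpna4, Card10, Icam1, Vcam1, Sele and Tnf, and the closest genes were 2 per member. One gene that this rule names is counted but not reported here. Proteins were not analysed here.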

Additional observations from a re-analysis of the deposited data

How the results depend on the processing

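Over the alternatives, 166 of 210 member values in KO against flox under vehicle kept their direction and their side of the threshold, 191 of 210 under MTX, 172 of 210 for MTX in flox mice, 209 of 210 for MTX in KO mice and 180 of 200 for the interaction. The cause of the changes was not tested. The count of members called between the genotypes under vehicle, 4, became 2 with library size as the only scaling and 2 at an adjusted p below 0.05, and 0 with a limit of 1.5 on the log2 scale and 0 without flox vehicle replicates 1 and 3, a choice made after seeing the data. For MTX in flox mice the count of 4 became 1 when each library had to hold 10 or more counts and 2 at an adjusted p below 0.05, and 0 with library size only, with the 6 libraries alone, with the log2 limit and without flox vehicle replicates 1 and 3. Between the genotypes under vehicle, 30.4% of all genes were called with library size only, 25.9% at adjusted p below 0.05 and 16.2% with the log2 limit. For MTX in flox mice these shares were 23.4%, 17.8% and 14.9%. With 10 or more counts per library the share there was 15.55%, and with the 6 libraries alone 12.2%. Leaving out 1 library at a time gave 1 to 4 calls of members between the genotypes under vehicle, 0 to 4 under MTX and 1 to 5 for MTX in flox mice. Library size only moved the median of all genes to 0.12 between the genotypes under MTX and to -0.15 for MTX in flox mice, so its values are relative to that shift.

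Same-numbered libraries were not treated as pairs in the main fit, and the labels do not say what the numbers mean. Over 12 such pairs the deviations from the group means correlated from -0.27 to 0.25 (median 0.04). With groups of 3 this cannot exclude a pairing. With the replicate number as a block, 1 member (Nfkb2) was called in each of the 2 comparisons with flox vehicle, and 0 elsewhere. Of all genes, the block left 27.2% called between the genotypes under vehicle and 14.8% for MTX in flox mice. Pathway calls for MTX in flox mice went from 9 to 3 with the block and target calls from 9 to 1.

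Values that were not called changed sign as follows. Between the genotypes under vehicle Rela went to 0.029 without a filter and 0.12 without flox vehicle replicates 1 and 3 (leaving out 1 library, -0.048 to 0.087), and Tnfaip3 to -0.020 with DESeq2, -0.022 with RLE factors, -0.029 with at least 10 counts and -0.15 with the block (-0.16 to 0.30). Under MTX, with library size only, Nfkbia went to 0.065 and Tnfaip3 to 0.12, and with the block Nfkbiz to -0.095 and Tnfaip3 to 0.055. Leaving out 1 library there gave -0.27 to 0.36 for Nfkbia, -0.33 to 0.50 for Tnfaip3, -0.22 to 0.41 for Nfkbiz and -0.072 to 0.18 for Relb. For MTX in flox mice Ikbkb went to -0.11 with library size only (-0.12 to 0.20), and Rela to 0.085 without flox vehicle replicates 1 and 3 (-0.078 to 0.057). For MTX in KO mice leaving out 1 library gave -0.12 to 0.31 for Nfkbiz. In the interaction Nfkb1 went to 0.14 with library size only and 0.041 with the block (-0.16 to 0.19), Rel to 0.24 without flox vehicle replicates 1 and 3 (-0.81 to 0.14), and Tnfaip3 to 0.0080 with DESeq2, 0.0042 with RLE factors, 0.12 with library size only, 0.0028 with at least 10 counts and 0.20 with the block (-0.35 to 0.49). The lowest members, Rel and Nfkbie, rest on 112 to 626 counts per library.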
